A study of Homo sapiens with 5 samples.

Results

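The transcripts that carried the most ribosome footprints per codon were examined in HEK293T cells, a human embryonic kidney line, lacking 1 of 3 genes of queuosine metabolism. They were selected on measured values. Among transcripts of over 100 codons, outside a stretch of 899 rows that the rule leaves out, the counts of the 5 libraries were summed and divided by the length in codons. Rows with the same counts in every library were reduced to the longest, and the 300 highest densities were taken from 48655 such transcripts, or 0.617% of them. The level of these transcripts is therefore a description and was not tested. The differences between knockouts were tested, but on the same counts that chose the members. The sum was not weighted, so it favours transcripts that are high in a genotype with more or deeper libraries. QTRT1 knockout, with 1 library, weighs least in it. Numbers of members higher or lower in a knockout may therefore follow in part from the rule.

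There was 1 library of QTRT1 knockout cells, 2 of QTGAL knockout cells and 2 of QTMAN knockout cells, all HEK293T. Replicate numbers follow the order in which the libraries are listed, and whether libraries of the same number belong together is not given in the labels. Unmodified cells were not analysed here, so every comparison is between knockouts. The labels do not say whether the libraries of a genotype came from separate clones or cultures, so a p-value measures only their spread, which may be technical. The counts of a library summed to between 12002044 (QTGAL knockout replicate 2) and 25291912 (QTMAN knockout replicate 2).

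As background, a ribosome protects the stretch of mRNA it covers from nuclease, and counting such footprints shows where ribosomes were. The number of footprints per codon rises with the amount of an mRNA and with how often ribosomes start on it, and also where they move slowly. In growing human cell lines the densest coding sequences are known to include those of ribosomal proteins, elongation factors, glycolytic enzymes, actin and tubulin, and histones. Queuosine replaces a guanosine at the wobble position of the tRNAs that read tyrosine, histidine, asparagine and aspartate codons. QTRT1 carries the active site of the enzyme that exchanges the base, and QTGAL and QTMAN are the enzymes that add galactose and mannose to it in the tRNAs for tyrosine and aspartate. No mRNA levels were analysed here, so more mRNA and more ribosomes per mRNA cannot be told apart. The tables do not pair their transcript identifiers with gene symbols, and neither does the reference table for these transcripts. The members are therefore given by identifier, length and row number in the tables, with no gene name, and no sequence is printed. The cell line's markers and the targeted genes were not checked by symbol for the same reason.

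Density fell steeply over the first members and slowly after. The summed density ran from 150.9 to 889.7 counts per codon, with a median of 207.8, against a median of 1.05 over all 48655 transcripts. The highest was that of uc001ess.4, of 104 codons, at 9.82 CPM per codon in QTRT1 knockout cells, 8.31 and 11.5 in QTGAL knockout cells and 7.50 and 11.1 in QTMAN knockout cells, CPM being the usual count scaled to library size, here after TMM normalization. Next came uc057klu.1 with 104 codons, uc001esy.4 and uc001esv.4 with 137 codons each, and uc001esx.4 with 131 codons. These 5 transcripts lie between rows 9360 and 9388, and QTMAN replicate 1 was the lowest library for each. The highest was the QTRT1 library for uc001esy.4 and uc001esv.4 and QTGAL replicate 2 for the other 3. At the other end, uc002pny.5, of 204 codons, was the last member at 150.9 counts per codon, and uc002asd.2, of 115 codons, lay just outside at 150.7. The last member stood at 1.44 CPM per codon in QTRT1 knockout cells, 1.48 and 1.65 in QTGAL knockout cells and 1.54 and 1.89 in QTMAN knockout cells.

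**Figure D1:**
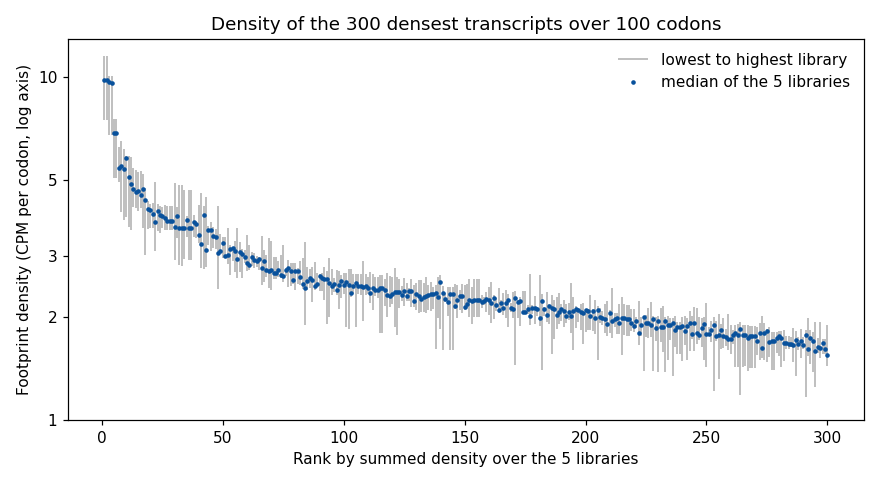
Footprint density (CPM per codon, log axis) of the 300 members against their rank by summed density. Points are the median of the 5 libraries and grey bars run from the lowest to the highest library; the highest median lies near 10 and the last members lie below 2.

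Each library's own ranking held most of the members, which is in part set by the rule, as its counts enter the sum. When each library was ranked by its own counts, its 300 densest transcripts held 271 of the members in QTRT1 knockout cells, 295 and 285 in QTGAL knockout replicates 1 and 2, and 280 and 285 in QTMAN knockout replicates 1 and 2. All 5 rankings shared 239 members, which included the first 100, and the first member missing from any of them stood at rank 171. The other 61 members were missing from at least 1 ranking. The QTRT1 library and QTMAN replicate 1 shared the fewest of their own densest transcripts, at 257 of 300, and the 2 QTGAL libraries shared the most, at 286. The pair QTRT1 and QTMAN replicate 2 shared 258, and the 2 QTMAN libraries shared 278.

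Members were short. Their median length was 155 codons and the longest had 686, against a median of 299 codons for all eligible transcripts. Of the members, 47% had up to 150 codons, 35% had over 150 and up to 250, and 18% were longer. Among all eligible transcripts these shares were 18.2%, 24.8% and, for longer ones, 38.9% up to 700 codons and 18.1% beyond. Length is the divisor of the density that chose the members, so a share of short transcripts is partly set by the rule.

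The 300 transcripts did not stand for 300 separate coding regions. Members within 20 rows of another were joined, which gave 77 row groups, 23 of them with 1 member. A group holds rows that lie next to each other in the tables and may share footprints, as isoforms would, or may be separate neighbouring genes. The 12 groups of 8 or more members held 126 of the 300. With a limit of 5 rows there were 91 groups and with 50 rows 75. Within the 54 groups of several members, log2 fold changes between QTGAL and QTMAN knockout had an SD of 0.042, while the medians of the 77 groups had an SD of 0.12. For QTRT1 knockout against the mean of the other knockouts these values were 0.034 and 0.21. Members of a group may share footprints, so a small spread within groups follows in part from how the groups were made. Counts of members below are therefore given with the number of groups they fall in.

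The largest group by count of members lay at rows 56025 to 56059, with 16 members of 102 to 322 codons. It held 0.971% of the counts of the QTRT1 library, 0.900% and 0.918% of the QTGAL libraries and 0.904% and 0.922% of the QTMAN libraries. The next, at rows 107313 to 107336, had 15 members of up to 647 codons and held 1.16% in QTRT1 knockout cells, 1.07% and 0.991% in QTGAL knockout cells and 1.15% and 1.08% in QTMAN knockout cells. The densest group, at rows 9360 to 9388, had 12 members of 104 to 137 codons, among them the 5 transcripts named above. It held 1.08% in QTRT1 knockout cells, 0.869% and 1.14% in QTGAL knockout cells and 0.772% and 1.11% in QTMAN knockout cells. The first of these groups was nearly level over the libraries, and the last differed more between libraries of a genotype than between genotypes. The 12 members of the densest group have 7 different lengths, of which 4 also occur among 24 distinct transcripts in the left-out stretch whose density is past that of the last member. Those 24 have 104 to 220 codons.

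Together the members held a similar share of every library. The share was 14.9% of all counts in the QTRT1 library, 14.3% and 15.0% in QTGAL knockout replicates 1 and 2, and 14.9% and 15.6% in QTMAN knockout replicates 1 and 2. The 95% Wilson intervals were no wider than from 15.00% to 15.05%, in QTGAL replicate 2. They treat counts as independent and cover at most counting error. No molecular identifiers are mentioned, so copies of a footprint cannot be told apart. How footprints that fit several transcripts were counted is not given in the sources, and one counted for several would enter a share several times. With 1 transcript per row group the 77 leads held 3.58% in the QTRT1 library, 3.52% and 3.70% in the QTGAL libraries and 3.60% and 3.73% in the QTMAN libraries.

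The mean share was 14.7 ± 0.505% in QTGAL knockout and 15.2 ± 0.516% in QTMAN knockout (SD, n = 2 each), a difference of -0.578 percentage points. This was about the size of the spread between libraries of a genotype, and a two-sided exact permutation test gave p = 0.667 (n = 2 each), where 2 libraries against 2 cannot go below 1 in 3. Without QTGAL replicate 1 or without QTMAN replicate 2 the difference was -0.221 or -0.213. Without QTGAL replicate 2 or QTMAN replicate 1 it was -0.934 or -0.943. The row group at rows 155849 to 155865 alone differed by -0.358, and without its 10 members the difference was -0.220. The QTRT1 library lay within the range of the other 4, at -0.0547 percentage points from the mean of the genotypes.

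By rank, the first 10 members held 0.941% of the QTRT1 library, 0.765% and 0.994% of the QTGAL libraries and 0.695% and 0.965% of the QTMAN libraries. Ranks 11 to 100 held 6.40% in QTRT1 knockout cells, 5.92% and 6.36% in QTGAL knockout cells and 6.47% and 6.84% in QTMAN knockout cells. The other 200 members held 7.56% in QTRT1 knockout cells, 7.63% and 7.67% in QTGAL knockout cells and 7.72% and 7.80% in QTMAN knockout cells. Libraries thus differed by the largest ratio in the first 10 and by the smallest in the last 200. The first 10 all belong to the densest group except uc063poz.1 at rank 7, so their ratio is mostly that of 1 group.

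**Figure D2:**
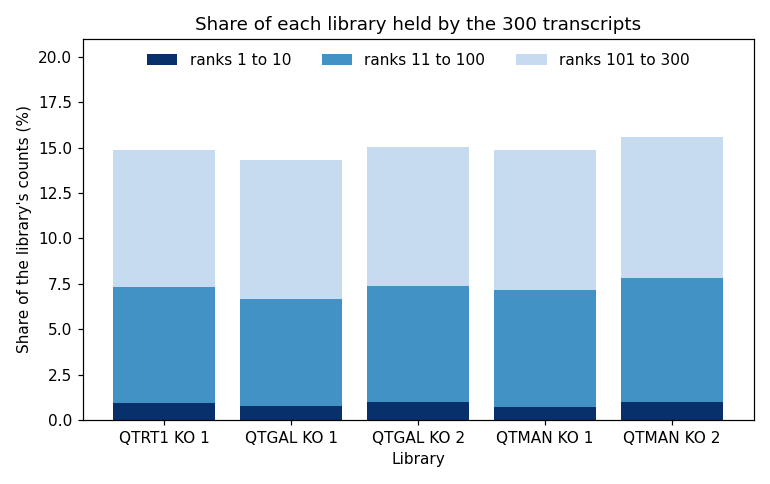
Share of each library's counts (%) held by members of rank 1 to 10, 11 to 100 and past 100, stacked, for the 5 libraries. The totals run from 14.3% in QTGAL knockout replicate 1 to 15.6% in QTMAN knockout replicate 2, and the lowest part is the most uneven in ratio.

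Member by member, levels were close. The ratio of the highest to the lowest of the 5 libraries had a median of 1.22 and ran from 1.05 to 1.74, with 32 members in 10 row groups over 1.5 and none over 2. The most even was uc064djo.1, of 106 codons, at 293.4 CPM in QTRT1 knockout cells, 286.7 and 290.0 CPM in QTGAL knockout cells and 278.8 and 291.8 CPM in QTMAN knockout cells. Another, uc059mnn.1 of 137 codons, stood at 244.1 CPM in QTRT1 knockout cells, 242.1 and 244.2 CPM in QTGAL knockout cells and 244.0 and 255.7 CPM in QTMAN knockout cells. Their highest library was 1.05 and 1.06 times their lowest.

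The most uneven was uc001hsz.4, of 127 codons, with 308.5 CPM in QTRT1 knockout cells, 292.3 and 402.5 CPM in QTGAL knockout cells and 240.1 and 418.1 CPM in QTMAN knockout cells. Both second replicates were high and both first replicates low, so the genotypes overlapped. First replicates were also low and second replicates high in the densest group, whose median log2 deviation from the mean of the 5 libraries was 0.09 in QTRT1 knockout cells, -0.19 and 0.23 in QTGAL knockout replicates 1 and 2, and -0.37 and 0.23 in QTMAN knockout replicates 1 and 2. Single members at rows 8916, of 137 codons, and 177833, of 127 codons, followed it, with -0.20 and 0.16, and -0.23 and 0.22, in the QTGAL replicates and -0.36 and 0.16, and -0.31 and 0.17, in the QTMAN replicates. The member at row 8916 lies near the densest group, at rows 9360 to 9388, while uc001hsz.4 lies at row 15124 and the last at row 177833. All these transcripts have 104 to 137 codons.

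More generally a second replicate of QTGAL or QTMAN knockout was the highest library for 189 members, and a first replicate of either was the lowest for 149. The median absolute log2 difference over the members was 0.097 within QTGAL knockout and 0.113 within QTMAN knockout. Across genotypes it was 0.077 between QTGAL and QTMAN replicate 1, 0.090 between QTGAL and QTMAN replicate 2, 0.140 between QTGAL replicate 1 and QTMAN replicate 2 and 0.137 between QTGAL replicate 2 and QTMAN replicate 1. Libraries of a genotype were thus no more alike in these transcripts than some libraries of different genotypes. The QTRT1 library differed from the others by 0.136 to 0.168.

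**Figure D3:**
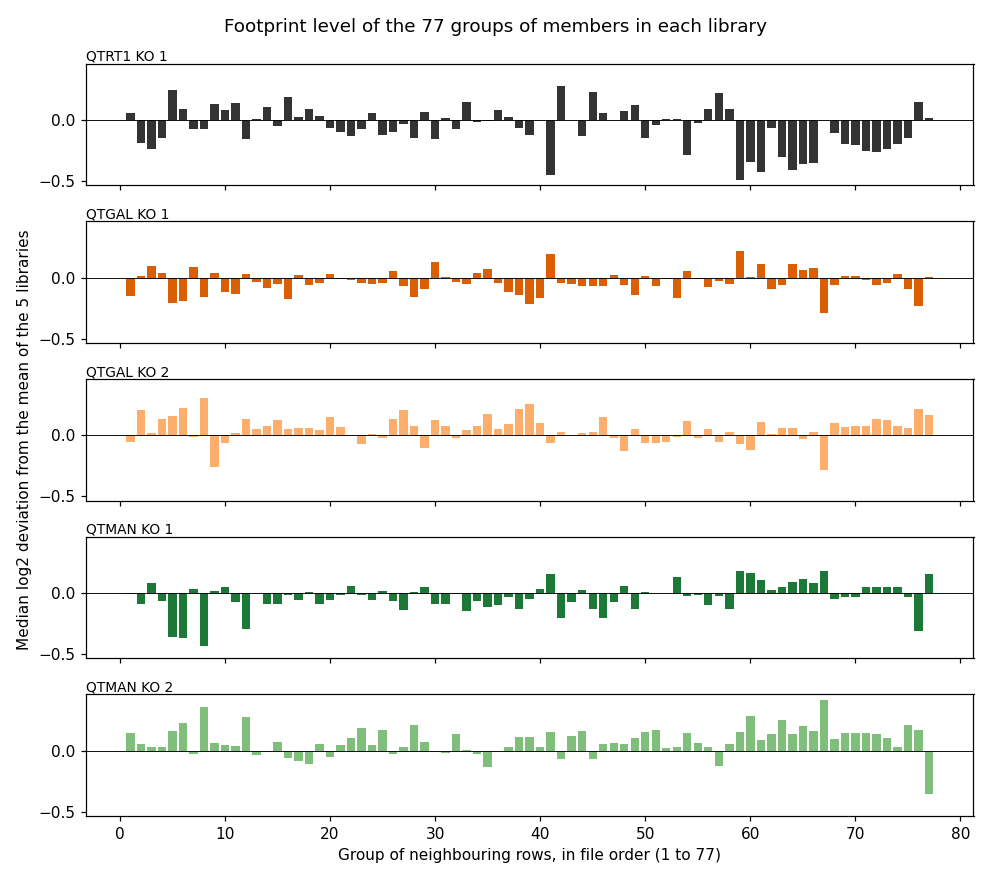
Median log2 deviation of each of the 77 row groups from the mean of the 5 libraries, in file order, with a panel per library. Groups 59 to 66 lie low in the QTRT1 library except for group 62, group 67 lies low in both QTGAL libraries, and groups 5, 6, 8 and 76 lie low in both first replicates of QTGAL and QTMAN knockout and high in both second replicates.

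The first comparison, QTGAL against QTMAN knockout, asked whether loss of the galactose enzyme left other footprint levels on these transcripts than loss of the mannose enzyme. The edgeR quasi-likelihood test, fitted on all 60966 tested transcripts, called 0 of the 300 members and 0% of all tested. At an unadjusted p under 0.05 there were 19 members, 2 higher and 17 lower in QTGAL knockout, in 6 row groups. They are 6.33% of the members, where all tested transcripts had 6.49%. The median absolute log2 fold change of the members was 0.071 and its median SE 0.10, against 0.17 and 0.24 over all tested. Another 684 tested transcripts with at least the CPM of the lowest member had 0.076 and 0.10. These were not reduced to distinct counts. The 300 members stand for 348 rows, and the rows not kept are among the 684, as may be other isoforms of the members. The 684 are therefore not a separate set, and whether other transcripts of high count share differences of this size was not tested.

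Both QTGAL libraries lay below both QTMAN libraries for 82 members in 21 row groups, or 27.3%, where 18.4% of all tested transcripts did. Both lay above for 23 members in 12 row groups, or 7.67%, where 18.2% did. Counted with 1 lead per row group the numbers were 15 lower and 12 higher of 77. Members of 1 group may share footprints, so the 82 are not separate observations.

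The row group at rows 155849 to 155865 was the one set apart. Its lead, uc002kal.3 of 376 codons, stood at 1165 and 1255 CPM in QTGAL knockout cells, against 1573 and 1852 CPM in QTMAN knockout cells, with 1416 CPM in QTRT1 knockout cells. Both QTGAL libraries lay below both QTMAN libraries and the QTRT1 library lay between. All 10 members had a log2 fold change between -0.66 and -0.50, with edgeR adjusted p-values between 0.326 and 0.568. The transcript with the smallest p, uc060lka.1 of 164 codons, averaged 410 ± 19.2 CPM in QTGAL knockout cells, against 647 ± 60.0 CPM in QTMAN knockout cells (SD, n = 2 each), or -0.66 ± 0.10 (SE) on the log2 scale.

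DESeq2 called all 10 members of that group lower in QTGAL knockout and no other member, with a smallest adjusted p of 0.000848. Of the 5506 transcripts given an adjusted p by DESeq2, 0.218% were called. The edgeR test called the same group's 10 members, and 0.118% of all tested, when QTMAN replicate 1 was left out. Without QTMAN replicate 2 it called 7 members, 6 lower and 1 higher, in this group and that of uc001hsz.4, with 0.855% of all tested called. The transcripts around this group moved the same way. Over 25 runs of rows on either side the median log2 deviation was -0.20 and -0.12 in the QTGAL libraries and 0.05 and 0.20 in the QTMAN libraries. After subtraction of this local deviation the group's median log2 fold change was -0.29, against -0.57 before.

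The other members named by the rule showed smaller differences. The transcript uc021qxo.2, of 131 codons, had 280.5 and 262.2 CPM in QTGAL knockout cells, against 326.6 and 351.6 CPM in QTMAN knockout cells. This is -0.32 ± 0.10 (SE) on the log2 scale, with an edgeR adjusted p of 0.666. In the other direction, uc004bep.3 of 106 codons had 231.6 and 249.0 CPM in QTGAL knockout cells, against 203.3 and 201.1 CPM in QTMAN knockout cells, or 0.25 ± 0.10 (SE) on the log2 scale, with an edgeR adjusted p of 0.750. The transcript uc064cdv.1, of 262 codons, had 564.7 and 582.1 CPM in QTGAL knockout cells, against 493.9 and 500.2 CPM in QTMAN knockout cells, or 0.21 ± 0.09 (SE) on the log2 scale, with an edgeR adjusted p of 0.766. In each of these 3 the libraries of the genotypes did not overlap, and none passed the test.

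QTRT1 knockout, in which queuosine should not be inserted, was set against the other knockouts, jointly (the mean of both) and singly. These comparisons share the QTRT1 library, and its single library was assumed to vary like those of the other genotypes. Against the mean of both, edgeR called 0 members and 0.161% of all tested transcripts. At an unadjusted p under 0.05 there were 52 members, 5 higher and 47 lower, or 17.3%, where all tested transcripts had 11.2% and the 684 others of high count 21.8%. Here and below, the 684 hold copies of members and were not reduced to distinct counts, so their shares are not like for like with those of the members. The median log2 fold change was -0.0052 over the members and -0.06 over the 77 leads, against -0.0021 over all tested.

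The other comparisons gave like counts. Against QTGAL knockout edgeR called 0 members and 0.00984% of all tested, and 56 members had an unadjusted p under 0.05, 7 higher and 49 lower, or 18.7%, where 10% of all tested and 16.2% of the 684 others of high count did. Against QTMAN knockout edgeR called 0 members and 0.113% of all tested, and 56 members had an unadjusted p under 0.05, 6 higher and 50 lower, again 18.7%, where 11.4% of all tested and 22.5% of those others did. DESeq2 called 12 members against both, 5 against QTGAL and 18 against QTMAN, all lower in QTRT1 knockout. They fell in 4, 2 and 6 row groups. Over the transcripts for which DESeq2 gave an adjusted p it called 0.632%, 0.609% and 1.12%.

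The QTRT1 library lay below the other 4 for 97 members in 36 row groups, or 32.3%, where 24.4% of all tested transcripts did. It lay above them for 76 members in 22 row groups, or 25.3%, where 24.8% did. Of the 77 leads, 32 lay below and 18 above. Many of the members that lay low stood together in the tables, and the 3 such stretches with the most members are described. In rows 146055 to 146601, 3 row groups with 13 members had median log2 deviations of -0.49 to -0.34 in the QTRT1 library. In rows 148380 to 150705, 4 row groups with 12 members had -0.41 to -0.31. In rows 160466 to 169542, 8 row groups with 28 members had -0.26 to -0.11. In these 3 stretches the QTRT1 library was lowest for all 53 members, and 37 of the 47 members lower at an unadjusted p under 0.05 lay there. The stretches were picked for this order, which is therefore a description.

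Members in the rows between the first 2 of them did not share it. The 6 members at rows 147156 to 147163, led by uc002gpx.5 of 230 codons, had a median deviation of -0.07 in the QTRT1 library. Their lead stood at 854 CPM in QTRT1 knockout cells, 837 and 917 CPM in QTGAL knockout cells and 914 and 986 CPM in QTMAN knockout cells, so the QTRT1 value lay within the range of the others.

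The lowest members in the QTRT1 library were in the first of these stretches. The transcript uc060amn.1, of 147 codons, had 205.7 CPM in QTRT1 knockout cells, against 343.0 and 284.1 CPM in QTGAL knockout cells and 333.8 and 326.5 CPM in QTMAN knockout cells. The QTRT1 library lay below all others, at -0.65 ± 0.13 (SE) on the log2 scale against both, with adjusted p-values of 0.106 by edgeR and 0.0109 by DESeq2. The transcript uc060bbl.1, of 146 codons, had 233.5 CPM in QTRT1 knockout cells, against 346.9 and 359.0 CPM in QTGAL knockout cells and 341.2 and 337.1 CPM in QTMAN knockout cells. This is -0.57 ± 0.11 (SE) on the log2 scale, with adjusted p-values of 0.100 by edgeR and 0.0128 by DESeq2. The other 4 libraries lay close together there.

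Transcripts around these members were low in the QTRT1 library too. Over 25 runs of rows on either side the median deviation of the QTRT1 library was -0.37 at both transcripts. After subtraction of the local deviation their log2 fold changes were -0.20 and -0.13. Over the 13 members of the first stretch the median log2 fold change was -0.57 before and -0.13 after, over the 12 of the next -0.46 and -0.03, and over the 28 of the last -0.22 and 0.08. After it, 29 of the 53 members had a log2 fold change under 0. Over all 300 members the locally centred edgeR fit called 0, where 0.217% of all tested were called. An unadjusted p under 0.05 was found in it for 40 members, or 13.3%, where 9.29% of all tested had one. Across the 77 row groups the deviation of a group and that of its neighbourhood correlated at r = 0.719 in the QTRT1 library, 0.488 and 0.403 in the QTGAL libraries and 0.482 and 0.616 in the QTMAN libraries. The points of each share a library, and a neighbourhood can hold isoforms of the group.

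A member outside these stretches behaved otherwise. The transcript uc009xrx.4, of 155 codons at row 94048, had 180.7 CPM in QTRT1 knockout cells, against 283.4 and 236.4 CPM in QTGAL knockout cells and 275.7 and 274.6 CPM in QTMAN knockout cells. Its log2 fold change against both was -0.57 (edgeR adjusted p = 0.139, DESeq2 adjusted p = 0.0403), and after subtraction of the local deviation it was -0.56. It was chosen after its values were seen.

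In the other direction, uc057xnn.1 of 116 codons had 281.5 CPM in QTRT1 knockout cells, against 225.1 and 235.8 CPM in QTGAL knockout cells and 201.0 and 220.9 CPM in QTMAN knockout cells. This is 0.35 ± 0.11 (SE) on the log2 scale, with an edgeR adjusted p of 0.262. The transcript uc001oft.4, of 167 codons, had 330.2 CPM in QTRT1 knockout cells, against 268.6 and 286.0 CPM in QTGAL knockout cells and 257.1 and 268.1 CPM in QTMAN knockout cells, or 0.29 ± 0.11 (SE) on the log2 scale. It did not pass the edgeR test. The QTRT1 library was the highest for both, and neither passed the test.

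The number of members called against both knockouts depended on single libraries, and so did the number over all tested transcripts. It was 0 without QTGAL replicate 1, 5 without QTGAL replicate 2, 8 without QTMAN replicate 1 and 27 without QTMAN replicate 2, where 0.161%, 0.779%, 0.715% and 2.43% of all tested were called. Against QTGAL knockout it was 0, 0, 5 and 13 in the same order, with 0.0118%, 0.382%, 0.579% and 1.47% of all tested. Against QTMAN knockout it was 0, 4, 0 and 19, with 0.291%, 0.563%, 0.41% and 1.93% of all tested. Such fits leave 1 residual degree of freedom.

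**Figure D4:**
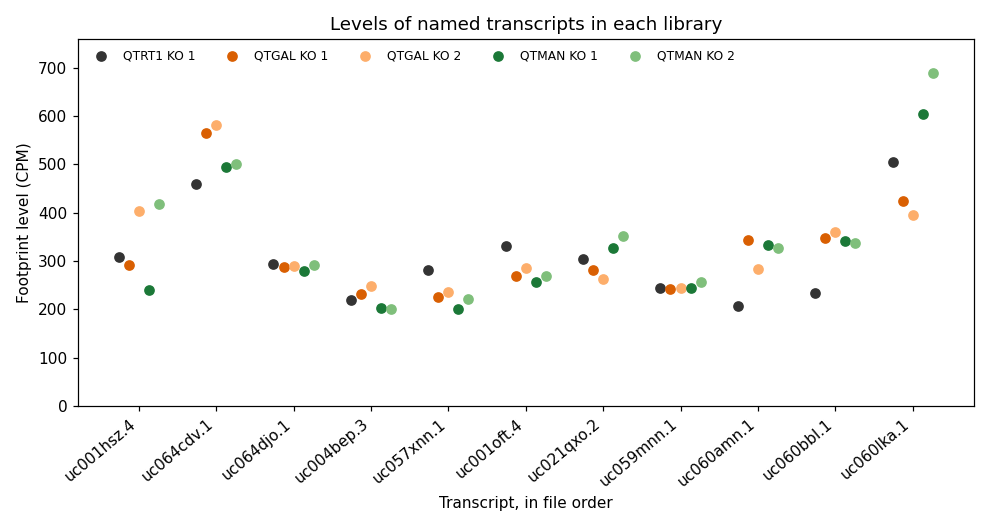
Footprint level (CPM) of 11 named members in each of the 5 libraries, in file order. For uc060lka.1 both QTMAN libraries lie above both QTGAL libraries, for uc060amn.1 and uc060bbl.1 the QTRT1 library lies lowest, and for uc001hsz.4 the libraries of a genotype lie far apart.

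**Figure D5:**
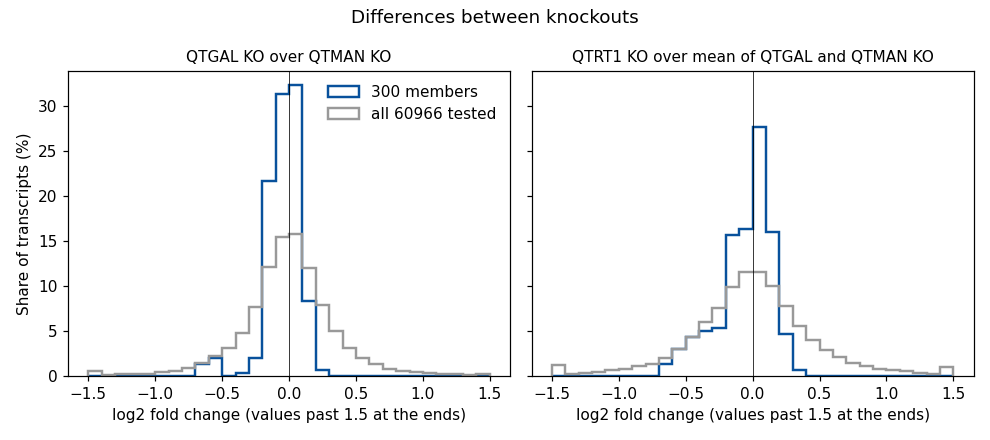
Distribution of log2 fold changes, in steps of 0.1, for the 300 members and for all 60966 tested transcripts, as a share of each (%), for QTGAL over QTMAN knockout and for QTRT1 knockout over the mean of both. The members lie closer to 0, with medians of -0.03 and -0.01, and their lowest values are -0.66 and -0.65. Their median SE was also smaller, at 0.10 and 0.11, against 0.24 and 0.28 over all tested.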

How the data were processed

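The deposited tables, 1 per library, list 182398 transcripts by identifier, with a length and a footprint count in whole numbers, not normalized. The authors deposited no unit for the length (a column of unit other than a count), which was read as codons. Per the submitters' processing notes, bcl2fastq 2.19, CASAVA and STAR 2.7.0a were used with build hg38. For annotation, counting program and strand, the setting was not given in the sources used here.

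Counts were tested with edgeR 4.0.16 in R 4.3.3: filterByExpr by genotype, TMM, glmQLFit and glmQLFTest with 1 mean per genotype over 5 libraries (2 residual degrees of freedom) and Benjamini-Hochberg adjustment over all 60966 transcripts tested, at a threshold of 0.05. All 300 members passed the filter. An SE is the size of a log2 fold change over the square root of its F statistic. DESeq2 1.42.0 and other settings were alternatives. Pairs of libraries were compared on log2(CPM + 0.5). For local deviations, neighbouring rows of at least 100 counts and densities within 2-fold were joined into runs; leads of at least 500 counts, 25 on either side, gave a median per library.

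Members, lists and alternatives were chosen with earlier results of these data known. Named transcripts are the 5 densest, those at the rank limit, those with the largest or smallest ratio between libraries, and 2 per direction with the smallest p, as none passed, at most 1 per 20 rows. Row groups, their leads (highest density) and uneven groups were described after their values were seen. Lists of genes by symbol could not be used.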

Additional observations from a re-analysis of the deposited data

How the results depend on the processing

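As reported, edgeR called 0 members in each comparison. Counts of members called are given for QTGAL against QTMAN, QTRT1 against QTGAL, QTRT1 against QTMAN and QTRT1 against both, in this order. They were 10, 12, 25 and 24 with no filter on low counts, where 0.355%, 0.813%, 1.46% and 1.46% of all transcripts were called. With DESeq2 they were 10, 5, 18 and 12, where 0.218%, 0.609%, 1.12% and 0.632% were called. With library totals in place of TMM they were 0, 0, 0 and 5, the last with 0.346% called. All these members were lower in the first-named knockout. The counts stayed at 0 with DESeq2's size factors in edgeR, with TMM computed without the members, with at least 5 CPM in 2 libraries, with 1 row per set of identical counts and with local centring. Under these settings 0% to 0.279% of all transcripts tested were called. Leaving out 1 library gave 0 to 10, 0 to 13, 0 to 19 and 0 to 27, where up to 0.855%, 1.47%, 1.93% and 2.43% of all transcripts were called. The cause was not tested. The replicate number, which follows the order of listing, was also used as a block, which leaves 1 residual degree of freedom. The counts were then 10, 0, 9 and 13, of which 0, 0, 4 and 4 were higher. Of all transcripts, 0.0771%, 0.218%, 0.812% and 0.594% were called. The labels do not say whether libraries of the same number belong together. Differences between replicates 1 and 2 in QTGAL and in QTMAN correlated at r = 0.524 over the members, 0.497 over the 77 leads and 0.187 over all tested transcripts. The last include transcripts of low count, and other transcripts of high count were not compared.

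The mean share of a library was 14.9%. It was 17.5% of counts in rows with distinct counts, 7.27% and 22.9% for the 100 and the 600 densest, and 3.63% with 1 member per row group, as fewer or more rows were counted. Without the densest row group it was 14.0%, and without the group lowest in QTGAL against QTMAN 14.0% (13.95% and 13.97%), both chosen after seeing the data. It stayed between 14.5% and 15.0% under the other settings that keep all libraries. Leaving out 1 library moved it between 14.8% and 15.1%, the QTGAL minus QTMAN difference between -0.943 and -0.213 percentage points and the QTRT1 difference between -0.237 and 0.128. The QTGAL minus QTMAN difference was negative under every setting tried. It was -0.649 where each genotype's members were chosen in the other genotypes only, so the lists can differ. These settings reuse the same libraries, so a shared sign is not separate evidence. Within the 300 members the sign varied. Values in brackets are SDs in QTGAL and QTMAN knockout (n = 2 each). The difference was 0.0722 for up to 150 codons (0.322 and 0.318) and -0.200 for over 150 and up to 250 (0.083 and 0.057). For longer ones it was -0.450 (0.0997 and 0.141). By rank it was 0.0495 for the first 10 members (0.162 and 0.191) and -0.518 for ranks 11 to 100 (0.313 and 0.267). Past rank 100 it was -0.110 (0.029 and 0.059). The positive values are smaller than their SDs, and the densest row group alone gave 0.0667. These values rest on few libraries, whose number limits the precision more than their depth does.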
